A study of Mus musculus with 6 samples.

Results

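PGC-1 coactivators, ERR nuclear receptors and PRDM16 form a set of 10 regulator genes of thermogenic fat, described here in inguinal white adipose tissue of mice labelled as knockouts of the small heat shock protein Hsp20. The members were chosen by name and found in the deposited count table by their mouse gene IDs: the coactivators Ppargc1a and Ppargc1b, the coregulator Prdm16, the nuclear receptors Ppara, Esrra, Esrrb and Esrrg, and the mitochondrial transcription genes Tfam, Nrf1 and Gabpa. All 10 were among the 24415 gene IDs of the table. The libraries came from 3 mice labelled Hsp20 KO and 3 labelled WT, 1 library per mouse, all aged 12 weeks, on a C57BL/6 background and not fasted. The sources used here give neither the sex of the mice nor the design of the knockout allele. Inguinal fat is a subcutaneous white depot that can take on features of brown fat.

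PGC-1α and PGC-1β, the products of Ppargc1a and Ppargc1b, do not bind DNA themselves but dock on transcription factors such as the ERR receptors, PPARα and NRF1, and raise genes of mitochondrial energy use. NRF1 and GABPA bind the promoters of nuclear genes for mitochondrial proteins, among them Tfam, whose product packages mitochondrial DNA and starts its transcription. PRDM16 is a zinc finger coregulator that promotes brown and beige fat identity, partly with PGC-1α. In brown and beige fat, cold and adrenergic signals are known to raise Ppargc1a.

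Library totals ran from 14078936 to 27937060 counts in the libraries labelled Hsp20 KO and from 26146472 to 32648746 in WT. Levels are given as CPM, in which every library is brought to the same TMM-scaled total, and changes are on the log2 scale, Hsp20 KO over WT, with the standard error (SE) of edgeR's quasi-likelihood fit and Benjamini-Hochberg adjusted p over all 15994 genes tested. A gene was called at an adjusted p under 0.05. Hspb6, which encodes Hsp20, had 8.86, 1.51 and 3.94 CPM in the libraries labelled Hsp20 KO replicates 1 to 3, against 12.6, 9.43 and 8.95 CPM in WT (log2 change -1.08, edgeR adjusted p = 0.227). Replicate 1 of the Hsp20 KO label therefore lay close to WT in RNA of the targeted gene. With the allele design not given, whether this level goes against its label cannot be told. Every direction below includes this replicate unless stated. Fat cell markers such as Adipoq and Plin1 were abundant in every library, their sum over 8 genes running from 12322 to 17314 CPM in Hsp20 KO and from 11835 to 14555 CPM in WT. WT replicate 1 stood apart in skeletal muscle transcripts. The sum of 12 muscle markers, Acta1 and Myh4 among them, was 54.7, 66.8 and 99.3 CPM in the libraries labelled Hsp20 KO, against 1029, 84.0 and 138 CPM in WT replicates 1 to 3. Of the 12, Pvalb alone was at 0 in a library, the one labelled Hsp20 KO replicate 2. The sum of 5 red cell transcripts was between 2618 and 3172 CPM in Hsp20 KO and between 5843 and 6729 CPM in WT.

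Of the 3 ERR receptor genes, Esrra and Esrrg rose in Hsp20 KO, while the coactivators that work with them, Ppargc1a and Ppargc1b, and Prdm16 did not pass the test. Esrra was 1.66-fold and Esrrg 3.97-fold higher. Ppara was 2.89-fold higher without passing, and Nrf1, Tfam and Gabpa had log2 changes of -0.26, 0.10 and 0.004. Of the 9 members tested, 2 were called higher and 0 lower. Over all tested genes 7.65% were called, 4.23% higher and 3.42% lower. With unadjusted p under 0.05, edgeR had 3 members higher and 1 lower, while DESeq2 called 3 higher and 0 lower and limma-voom 1 higher and 0 lower. Over all tested genes those shares were 13.3% higher and 12.7% lower by unadjusted p, 7.10% higher and 6.40% lower with DESeq2, and 4.03% higher and 3.26% lower with limma-voom. The tenth member, Esrrb, had too few counts to be tested. CPM ranges of the groups did not overlap for 3 of the 9, Esrra, Esrrg and Nrf1, against 32.5% of all tested genes.

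**Figure D1:**
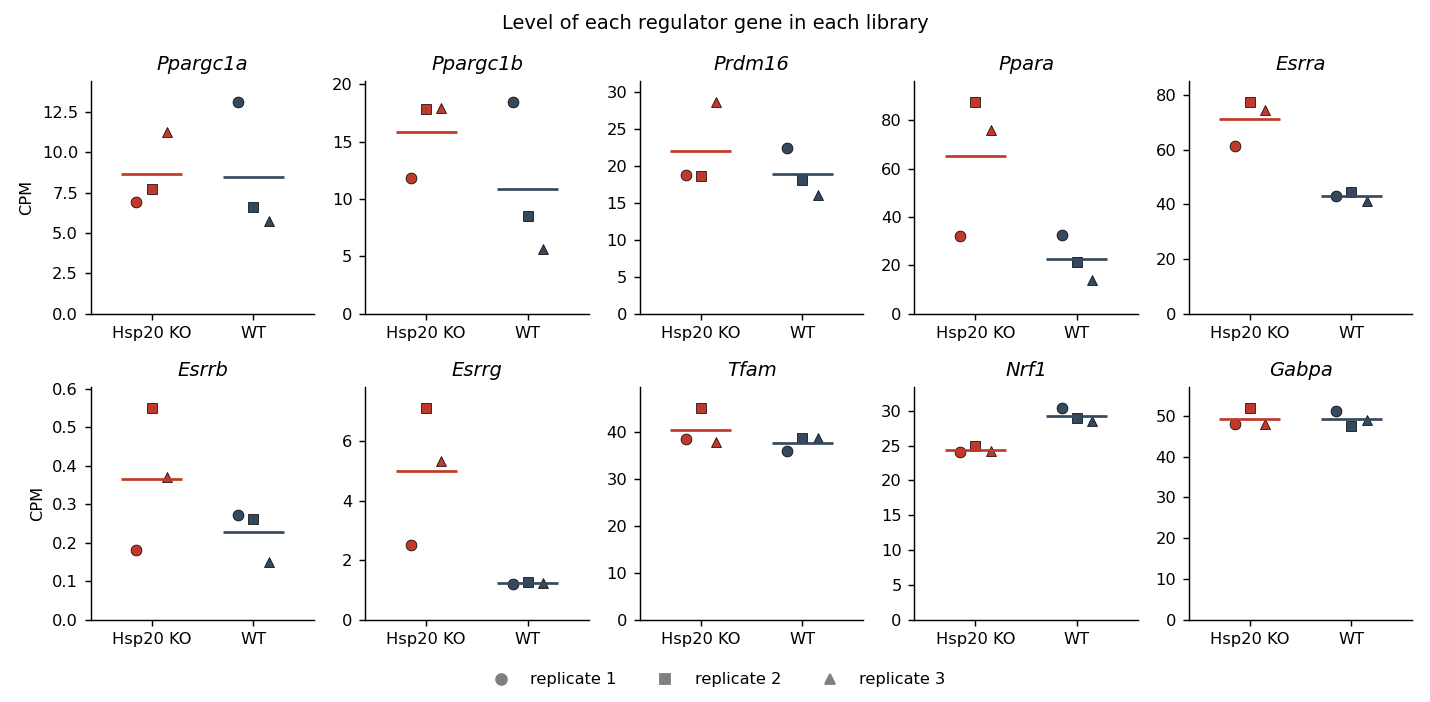
CPM (vertical axes from 0, one scale per gene) of the 10 regulator genes in each library, with Hsp20 KO left of WT, marker shapes for replicates and lines for group means. Esrra and Esrrg are higher in every library labelled Hsp20 KO than in any WT library, Nrf1 is lower in every one, and WT replicate 1 is the highest WT library for Ppargc1a, Ppargc1b and Ppara.

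Esrra encodes ERRα, an orphan nuclear receptor through which PGC-1 coactivators raise mitochondrial genes. Esrra (gene ID 26379, GRCm38 chromosome 19, 6910977 to 6922048, minus strand) had 1694, 1688 and 1003 counts in the libraries labelled Hsp20 KO replicates 1 to 3, against 1106, 1366 and 1356 in WT. As CPM these were 61.2, 77.3 and 74.5 in Hsp20 KO and 42.9, 44.6 and 41.0 in WT. The lowest library labelled Hsp20 KO, replicate 1, was still above the highest WT library. Mean Esrra was 71.0 ± 8.57 CPM in Hsp20 KO and 42.8 ± 1.79 CPM in WT (SD, n = 3 each), and the log2 change was 0.73 ± 0.10 (SE, edgeR adjusted p = 0.0113). In bulk tissue, more cells that express a gene and more of its RNA per cell cannot be told apart. The Esrra call was lost without WT replicate 2 or 3 (edgeR adjusted p = 0.0582 and 0.0628), with log2 changes of 0.76 and 0.70. Its exons share 73 bases with Trmt112 on the opposite strand, a gene with a log2 change of 0.08 (edgeR adjusted p = 0.480). The sources used here do not say whether reads were counted by strand.

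Esrrg encodes ERRγ, a relative of ERRα that is abundant in oxidative tissues such as heart, slow muscle and brown fat. Esrrg (gene ID 26381, GRCm38 chromosome 1, 187608510 to 188214885, plus strand) had 69, 155 and 72 counts in Hsp20 KO replicates 1 to 3 as labelled, against 31, 39 and 41 in WT. Its levels were 2.49, 7.10 and 5.35 CPM in Hsp20 KO and 1.20, 1.27 and 1.24 CPM in WT. The groups did not overlap, and the library labelled Hsp20 KO replicate 1 lay nearest to WT, at 2.01 times the WT mean against 5.02 times for the mean of the other libraries labelled Hsp20 KO. Mean Esrrg was 4.98 ± 2.32 CPM in Hsp20 KO and 1.24 ± 0.0348 CPM in WT (SD, n = 3 each), and the log2 change was 1.99 ± 0.37 (SE, edgeR adjusted p = 0.0253). The coefficient of variation among WT libraries, 2.81%, was below the 16.5% that counting alone gives at these depths. Esrrg was not called with limma-voom (adjusted p = 0.055). It was called without the library labelled Hsp20 KO replicate 1 (edgeR adjusted p = 0.00129) but with no other single library left out (edgeR adjusted p from 0.0522 to 0.108).

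Esrrb encodes ERRβ, best known from embryonic stem cells, placenta and inner ear. It was near the limit of detection, with 5, 12 and 5 counts in Hsp20 KO and 7, 8 and 5 counts in WT. The groups overlapped, and no difference was detectable at this depth. Per kb of exon, Esrrg made up 2.79%, 6.06% and 4.81% of the summed level of the 3 ERR genes in Hsp20 KO, against 1.93%, 1.97% and 2.09% in WT, and Esrra made up between 93.5% and 97.0% in Hsp20 KO and between 97.6% and 97.7% in WT. The summed ERR level was 14.4, 18.9 and 17.9 CPM per kb in Hsp20 KO and 10.02, 10.4 and 9.57 CPM per kb in WT. Esrra thus supplied most ERR transcripts in both groups. The log2 ratio of Esrra over Esrrg averaged 3.95 ± 0.599 in Hsp20 KO and 5.10 ± 0.0569 in WT (SD, n = 3 each). Its difference of -1.15 had p = 0.1 in a two-sided exact permutation test, which is the smallest p that 3 against 3 libraries can give and which was 0.1 after adjustment over the 2 ratios tested.

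**Figure D2:**
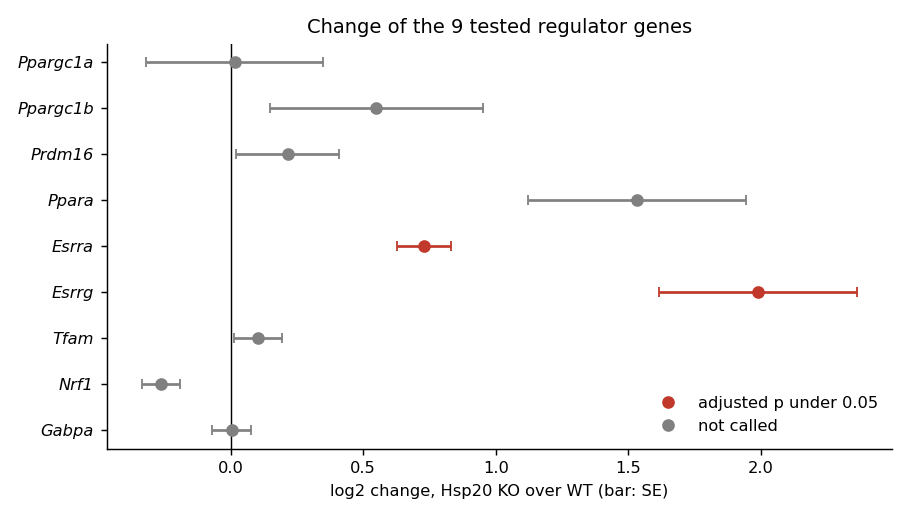
Log2 change, Hsp20 KO over WT (horizontal axis), of the 9 tested regulator genes, with bars for the SE of the edgeR fit. Esrra and Esrrg, in red, passed an adjusted p of 0.05. Ppara, at 1.53 with an SE of 0.41, missed that threshold.

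Ppara encodes PPARα, the fatty acid sensing receptor that raises genes of fatty acid oxidation. Ppara (gene ID 19013, GRCm38 chromosome 15, 85734910 to 85806851, plus strand) had 889, 1911 and 1025 counts in the libraries labelled Hsp20 KO replicates 1 to 3, against 834, 660 and 455 in WT. As CPM these were 32.1, 87.5 and 76.1 in Hsp20 KO and 32.4, 21.5 and 13.8 in WT. The groups overlapped by a narrow margin, since the library labelled Hsp20 KO replicate 1 lay just under WT replicate 1. Mean Ppara was 65.3 ± 29.2 CPM in Hsp20 KO and 22.6 ± 9.35 CPM in WT (SD, n = 3 each), and the log2 change was 1.53 ± 0.41 (SE, edgeR adjusted p = 0.0636). Ppara was called with DESeq2 (adjusted p = 0.0377), with no filter on low counts (edgeR adjusted p = 0.0421) and without the library labelled Hsp20 KO replicate 1 (edgeR adjusted p = 0.0125).

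The promoter windows of 4 members are shown because they are the 3 receptor genes with the largest changes and Tfam, a gene that NRF1 and GABPA are known to regulate. Each window runs from 250 bases before to 50 after an annotated start (RefSeq, GRCm38.p6) and reads 5′ to 3′ on the gene's strand. Both strands were searched for AAGGTCA, the core of an ERR site, GCATGCGC, part of an NRF1 site, CCGGAAG, a GABP site, TGACGTCA, a cAMP response element, and CACGTG, an E-box. Capitals mark the matches. Esrra is at chr19:6921759-6922058 (minus strand), Ppara at chr15:85735526-85735825 (plus strand), Esrrg at chr1:187608756-187609055 (plus strand, the first of 4 windows) and Tfam at chr10:71237995-71238294 (minus strand).
Esrra: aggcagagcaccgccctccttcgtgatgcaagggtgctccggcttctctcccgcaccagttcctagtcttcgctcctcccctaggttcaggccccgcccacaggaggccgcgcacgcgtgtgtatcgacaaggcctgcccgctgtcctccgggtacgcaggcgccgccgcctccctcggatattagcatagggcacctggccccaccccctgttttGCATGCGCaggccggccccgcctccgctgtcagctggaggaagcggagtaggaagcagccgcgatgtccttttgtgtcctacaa
Ppara: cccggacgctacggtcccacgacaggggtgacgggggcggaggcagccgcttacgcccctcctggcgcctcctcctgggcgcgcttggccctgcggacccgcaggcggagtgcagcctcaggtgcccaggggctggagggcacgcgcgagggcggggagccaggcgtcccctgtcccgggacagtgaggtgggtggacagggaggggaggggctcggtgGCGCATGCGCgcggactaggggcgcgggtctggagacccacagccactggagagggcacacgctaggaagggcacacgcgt
Esrrg: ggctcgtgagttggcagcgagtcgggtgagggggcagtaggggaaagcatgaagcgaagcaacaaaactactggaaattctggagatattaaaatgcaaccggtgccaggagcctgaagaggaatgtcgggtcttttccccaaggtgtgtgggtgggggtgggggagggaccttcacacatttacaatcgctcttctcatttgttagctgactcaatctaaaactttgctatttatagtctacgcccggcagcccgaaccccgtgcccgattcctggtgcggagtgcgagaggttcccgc
Tfam: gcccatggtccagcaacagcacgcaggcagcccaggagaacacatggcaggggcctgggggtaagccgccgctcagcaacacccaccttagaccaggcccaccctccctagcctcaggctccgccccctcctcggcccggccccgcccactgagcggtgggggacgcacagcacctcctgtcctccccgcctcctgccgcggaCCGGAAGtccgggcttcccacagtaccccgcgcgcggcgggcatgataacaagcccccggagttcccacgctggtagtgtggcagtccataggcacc
The Esrra window held the NRF1 letters once, starting at base -34 from the start, and the Ppara window held them on both strands, overlapping, at bases -31 and -29. These letters occurred in 2.71% of 32817 promoter windows of this length. Tfam held the GABP letters at base -47, and Gabpa, not printed, held them on the opposite strand at base -93. The GABP letters occurred in 8.86% of all windows. The ERR letters (4.72% of all windows), the cAMP response element (1.79%) and the E-box (7.15%) were not in the listed windows of the 9 members searched, in which Ppargc1b was not included.

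Ppargc1a is the coactivator best known for its response to cold in brown and beige fat. Ppargc1a (gene ID 19017, GRCm38 chromosome 5, 51454249 to 52115853, minus strand) had 6.90, 7.74 and 11.3 CPM in the libraries labelled Hsp20 KO replicates 1 to 3, against 13.1, 6.59 and 5.77 CPM in WT replicates 1 to 3. The groups overlapped, and WT replicate 1 was the highest of all 6 libraries. Mean Ppargc1a was 8.64 ± 2.33 CPM in Hsp20 KO and 8.50 ± 4.03 CPM in WT (SD, n = 3 each), and the log2 change was 0.02 ± 0.33 (SE, edgeR adjusted p = 0.983). Without WT replicate 1 the log2 change was 0.46 (edgeR adjusted p = 0.277), and it was negative without WT replicate 2, WT replicate 3 or the library labelled Hsp20 KO replicate 3, with values down to -0.20. Counts are per gene, so the known isoforms of PGC-1α were not separated.

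Ppargc1b, whose product PGC-1β is known to act with ERRα on mitochondrial genes, had 11.9, 17.9 and 17.9 CPM in Hsp20 KO as labelled, against 18.4, 8.52 and 5.62 CPM in WT. WT replicate 1 again had the highest level of the 6, and the other WT libraries had the lowest. Mean Ppargc1b was 15.9 ± 3.48 CPM in Hsp20 KO and 10.9 ± 6.72 CPM in WT (SD, n = 3 each), and the log2 change was 0.55 ± 0.40 (SE, edgeR adjusted p = 0.432). Without WT replicate 1 the log2 change was 1.15 (edgeR adjusted p = 0.0619). The log2 ratio of Ppargc1b over Ppargc1a was 0.78, 1.21 and 0.66 in Hsp20 KO and 0.49, 0.37 and -0.04 in WT. Every library labelled Hsp20 KO was above every WT library in this ratio, WT replicate 1 included. The difference of 0.61 had p = 0.1 in the two-sided exact permutation test, the smallest that 3 against 3 can give, or 0.1 adjusted over the 2 ratios. Per kb of exon, Ppargc1b made up between 72.4% and 79.2% of the summed level of the 2 genes in Hsp20 KO and between 61.7% and 69.9% in WT.

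High values of Ppargc1a, Ppargc1b and Ppara in WT coincided with the skeletal muscle transcripts of WT replicate 1. That library had 2.12, 2.61 and 1.83 times the mean of the other WT libraries for Ppargc1a, Ppargc1b and Ppara, and 1.003 times for Esrra and 0.958 times for Esrrg. For Prdm16 it had 1.32 times that mean, for Nrf1 and Gabpa 1.06 times each and for Tfam 0.928 times. The log2 range of Ppargc1a over the WT libraries was 1.18, of Ppargc1b 1.71 and of Ppara 1.23, larger than for 99.2%, 99.7% and 99.3% of the 12139 genes with a mean of at least 5 CPM, whose median range was 0.18. Over the libraries labelled Hsp20 KO, where muscle markers summed to at most 99.3 CPM, Ppara had a log2 range of 1.44, larger than for 98.9% of these genes, and Ppargc1a one of 0.71, larger than for 91.0%. Skeletal muscle expresses these 3 genes, and slow muscle also expresses Esrrg, which was not raised in WT replicate 1. The part of the muscle transcripts in the WT levels of the members was not tested. The muscle list had 0 of 11 tested markers called by edgeR, with 10 lower in Hsp20 KO at an unadjusted p under 0.05. Without the libraries labelled Hsp20 KO replicates 1 to 3 this unadjusted count was 0, 0 and 7. Without WT replicates 1 to 3 it was 1, 11 and 11. DESeq2 called 1 lower and limma-voom 0. An alternative added after the data were seen left out WT replicate 1 together with the library labelled Hsp20 KO replicate 1. It called 4 of the 9 members higher and 0 lower with edgeR, and 5 higher and 1 lower by unadjusted p under 0.05. Over all 16009 genes tested there, 4.20% were called higher and 4.06% lower, and 2020 were higher and 2130 lower by unadjusted p. The log2 change of Ppargc1b was then 1.32 (edgeR adjusted p = 0.0243), of Ppara 2.20 (0.00815), of Esrra 0.81 (0.011) and of Esrrg 2.30 (0.00818). Ppargc1a had 0.59 (edgeR adjusted p = 0.159) and Prdm16 0.44 (0.244).

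**Figure D3:**
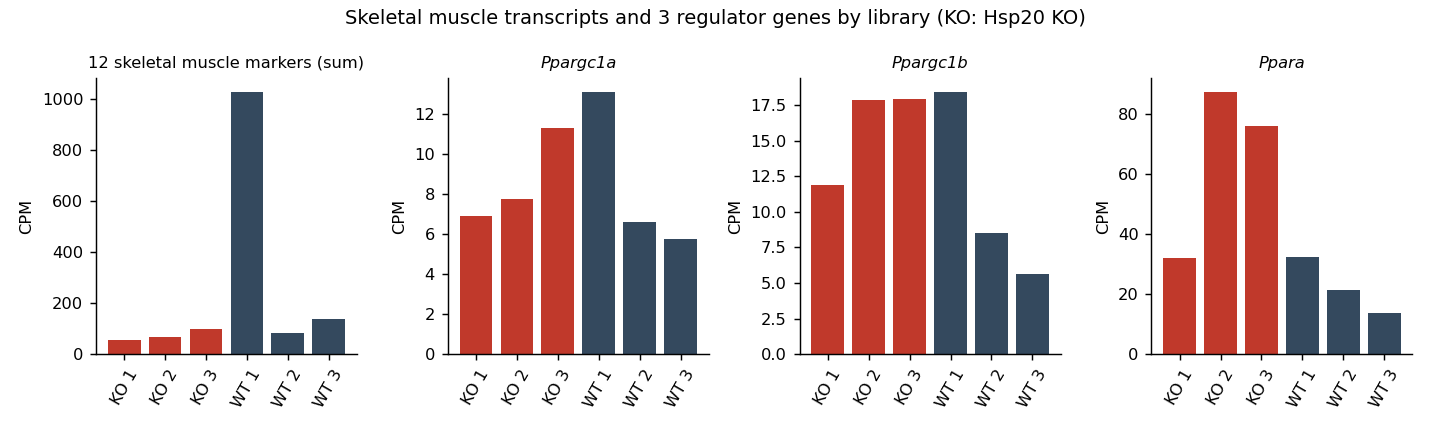
Summed CPM of 12 skeletal muscle markers and CPM of Ppargc1a, Ppargc1b and Ppara in each library (bars from 0, Hsp20 KO in red left of WT in dark blue). WT replicate 1 has 1029 CPM of muscle markers, and the other libraries have between 54.7 and 138 CPM.

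**Figure D4:**
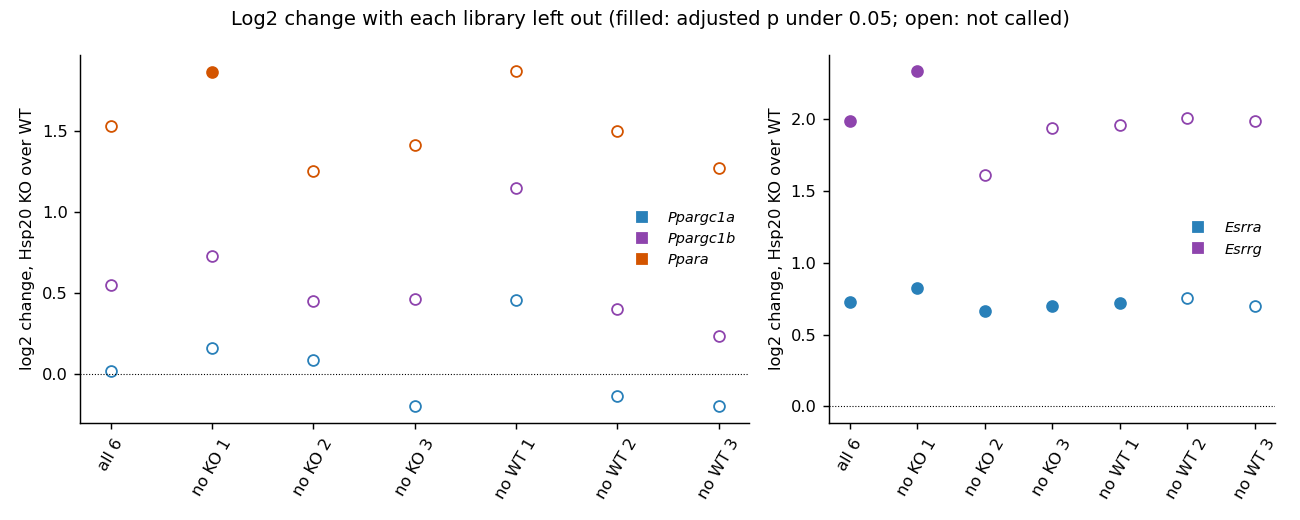
Log2 change, Hsp20 KO over WT (vertical axis), of 5 regulator genes with all 6 libraries and with each library left out in turn (horizontal axis). Filled points passed an adjusted p of 0.05. Esrra stays between 0.66 and 0.83, and Ppargc1b runs from 0.23 without WT replicate 3 to 1.15 without WT replicate 1.

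Prdm16 had 18.8, 18.6 and 28.6 CPM in the libraries labelled Hsp20 KO replicates 1 to 3, against 22.4, 18.05 and 16.1 CPM in WT. The groups overlapped, with the library labelled Hsp20 KO replicate 3 alone above the WT range. Mean Prdm16 was 22.007 ± 5.70 CPM in Hsp20 KO and 18.8 ± 3.26 CPM in WT (SD, n = 3 each), and the log2 change was 0.21 ± 0.19 (SE, edgeR adjusted p = 0.531). Without the library labelled Hsp20 KO replicate 3 the log2 change was -5.74e-05.

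Nrf1 encodes nuclear respiratory factor 1. It had 24.1, 25.003 and 24.2 CPM in the libraries labelled Hsp20 KO replicates 1 to 3, against 30.4, 28.9 and 28.6 CPM in WT. All 3 libraries labelled Hsp20 KO were below all WT libraries. Mean Nrf1 was 24.4 ± 0.502 CPM in Hsp20 KO and 29.3 ± 0.94 CPM in WT (SD, n = 3 each). Its log2 change, -0.26 ± 0.07 (SE), missed the threshold (edgeR adjusted p = 0.0664, from 0.0611 to 0.183 over the alternatives). Tfam had 38.6, 45.1 and 38.0 CPM in Hsp20 KO and 35.9, 38.7 and 38.8 CPM in WT, a log2 change of 0.10 ± 0.09 (SE, edgeR adjusted p = 0.521). Gabpa had 48.01, 51.8 and 48.04 CPM in Hsp20 KO and 51.2, 47.5 and 48.9 CPM in WT, a log2 change of 0.004 ± 0.073 (SE, edgeR adjusted p = 0.98). Both genes overlapped between the groups. Gabpa shares 397 exon bases with Atp5j on the opposite strand, a subunit gene of ATP synthase with a log2 change of 0.14 (edgeR adjusted p = 0.348).

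Levels were also set against each other per kb of exon. In Hsp20 KO the order was Ppara at 17.01 CPM per kb, Esrra at 16.2, Tfam at 9.14, Gabpa at 8.67, Ppargc1b at 3.98, Nrf1 at 2.38, Prdm16 at 2.36, Ppargc1a at 1.31, Esrrg at 0.802 and Esrrb at 0.0607. Neighbours whose libraries overlapped in Hsp20 KO were Ppara and Esrra, Tfam and Gabpa, Nrf1 and Prdm16, and Ppargc1a and Esrrg. In WT the order was Esrra at 9.76 CPM per kb, Gabpa at 8.65, Tfam at 8.52, Ppara at 5.88, Nrf1 at 2.85, Ppargc1b at 2.72, Prdm16 at 2.02, Ppargc1a at 1.29, Esrrg at 0.1995 and Esrrb at 0.0377. Overlap between neighbours in WT ran from Gabpa through Tfam to Ppara and from Nrf1 through Ppargc1b and Prdm16 to Ppargc1a. By group mean, Ppara was the highest member in Hsp20 KO and the fourth in WT. In the library labelled Hsp20 KO replicate 1, however, Ppara was at 8.38 CPM per kb. Esrra at 13.96, Tfam at 8.69 and Gabpa at 8.44 were above it there, so the Ppara range in Hsp20 KO also overlapped those of Tfam and Gabpa. The coactivators and Prdm16 were well below Esrra in both groups.

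Among 14680 other genes with a mean of at least 1 CPM, those whose centred log2 profile over the 6 libraries came nearest to Esrra were Tmem268, Cox7b, a cytochrome c oxidase subunit, and Nudt7, a coenzyme A hydrolase of peroxisomes. Their root-mean-square differences from the Esrra profile were 0.051, 0.0535 and 0.0594 on the log2 scale. Nearest to Esrrg were Tmem79, Kcnj14, a potassium channel, and Sorcs2, at 0.196, 0.215 and 0.225.

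Genes described as raised by ERR with PGC-1 were mostly higher in Hsp20 KO. Of 29 tested, 20 rose and 0 fell, with a median log2 change of 0.62, where the median over all tested genes was 0.00061. By unadjusted p under 0.05, edgeR had 26 higher and 0 lower, DESeq2 called 24 higher and 0 lower, and limma-voom 20 and 0. Over all tested genes edgeR called 4.23% higher and 3.42% lower, with 13.3% and 12.7% by unadjusted p. DESeq2 called 7.10% and 6.40% of all genes, and limma-voom 4.03% and 3.26%. This list and those below were chosen with earlier results of these data known, so their counts are no independent support. Dlat, a subunit of pyruvate dehydrogenase, averaged 246 ± 49.6 CPM in Hsp20 KO and 114 ± 3.01 CPM in WT (SD, n = 3 each; edgeR adjusted p = 0.00926). Uqcrfs1 of complex III rose 1.58-fold, and Cox5b and Cox5a of complex IV rose 1.505-fold and 1.81-fold. The count of 20 depended on single libraries: edgeR called 25, 6 and 7 without the libraries labelled Hsp20 KO replicates 1 to 3, and 5, 0 and 0 without WT replicates 1 to 3. Calls over the whole table moved as well. Among all tested genes, the same fits called 941, 325 and 327 higher, then 325, 79 and 75, against 676 with all libraries. The median of the list stayed between 0.53 and 0.73 in these 6 fits. Without both the library labelled Hsp20 KO replicate 1 and WT replicate 1, edgeR called 24 of these targets, 16 of 28 PPARα targets and 12 of 14 genes raised by PRDM16 higher, and none of the 3 lists had a gene called lower.

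Of 27 tested genes described as PPARα targets, 13 rose and 0 fell, with a median log2 change of 0.64. By unadjusted p under 0.05, edgeR had 16 higher and 0 lower, DESeq2 called 15 higher and 0 lower, and limma-voom 11 and 0. Over all tested genes edgeR called 4.23% higher and 3.42% lower, with 13.3% and 12.7% by unadjusted p. DESeq2 called 7.10% and 6.40% of all genes, and limma-voom 4.03% and 3.26%. Cpt1b, the muscle-type carnitine palmitoyltransferase of mitochondrial fatty acid import, averaged 91.4 ± 49.0 CPM in Hsp20 KO and 9.93 ± 1.25 CPM in WT (SD, n = 3 each; edgeR adjusted p = 0.0112). Hadhb and Hadha, the subunits of the trifunctional protein of beta-oxidation, rose 2.53-fold and 2.29-fold, Acadvl, the very long chain acyl-CoA dehydrogenase, 2.13-fold and Acot2, a mitochondrial thioesterase, 1.82-fold. Cpt1a, the liver-type relative of Cpt1b, picked after its values were seen, had no call (log2 change -0.09, edgeR adjusted p = 0.613). Without the libraries labelled Hsp20 KO replicates 1 to 3 edgeR called 19, 4 and 4 of these genes, and without WT replicates 1 to 3 it called 5, 0 and 0. Among all tested genes, the same fits called 941, 325 and 327 higher, then 325, 79 and 75, against 676 with all libraries.

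Brown fat genes described as raised by PRDM16 had the highest median of the 6 pathway lists. Of 14 tested, 11 rose and 0 fell, with a median log2 change of 2.52. By unadjusted p under 0.05, edgeR had 12 higher and 0 lower, DESeq2 called 12 higher and 0 lower, and limma-voom 7 and 0. Over all tested genes edgeR called 4.23% higher and 3.42% lower, with 13.3% and 12.7% by unadjusted p. DESeq2 called 7.10% and 6.40% of all genes, and limma-voom 4.03% and 3.26%. Slc27a2, a fatty acid transport protein with acyl-CoA synthetase activity, averaged 7.61 ± 0.525 CPM in Hsp20 KO and 0.729 ± 0.351 CPM in WT (SD, n = 3 each; edgeR adjusted p = 0.00245). Pank1, a pantothenate kinase, rose 3.94-fold, Cidea, a lipid droplet protein, 5.79-fold, Cox7a1, a cytochrome c oxidase subunit, 7.33-fold and Elovl3, a fatty acid elongase, 34.2-fold. The Elovl3 fold rests on 6, 10 and 1 counts in WT replicates 1 to 3, so its size is uncertain. Adrb3, the adrenergic receptor of fat cells, and Eva1a had no call (log2 changes -0.29 and 0.23, edgeR adjusted p = 0.32 and 0.673), nor did Kng2 (2.50, 0.0786), the remaining uncalled member. EdgeR called 12, 8 and 7 without the libraries labelled Hsp20 KO replicates 1 to 3, and 8, 4 and 4 without WT replicates 1 to 3. Among all tested genes, the same fits called 941, 325 and 327 higher, then 325, 79 and 75, against 676 with all libraries. Of 6 brown fat markers, Ucp1 and Cox8b were higher by edgeR and DESeq2, while limma-voom called 0 (2 by unadjusted p). The PRDM16 list also holds Ucp1, Cox8b and the uncalled Eva1a. Without the libraries labelled Hsp20 KO replicates 1 to 3 edgeR called 2, 1 and 1 of the 6, and without WT replicates 1 to 3 it called 1, 0 and 0 (2 by unadjusted p in each fit). The other 4, Zic1, Lhx8, Eva1a and Epsti1, had no call (edgeR adjusted p from 0.61 to 0.949).

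White fat genes described as lowered by PRDM16 had 1 of 8 lower, Wfdc21, and 0 higher by edgeR, against 1 higher and 4 lower by unadjusted p under 0.05 (median log2 change -0.33). DESeq2 called 3 lower and 0 higher, and limma-voom 1 and 0. Over all tested genes the shares lower were 3.42% by edgeR, 12.7% by unadjusted p, 6.40% with DESeq2 and 3.26% with limma-voom. The shares higher were 4.23%, 13.3%, 7.10% and 4.03%. Wfdc21, a whey acidic protein family gene, averaged 9.43 ± 2.59 CPM in Hsp20 KO and 16.8 ± 1.70 CPM in WT (SD, n = 3 each; edgeR adjusted p = 0.0498). Agt, which encodes angiotensinogen, Psat1 of serine synthesis and Retn, which encodes resistin, had log2 changes of -1.05, -0.46 and -0.57 (edgeR adjusted p = 0.0624, 0.0937 and 0.145), and Trim14 of 0.28 (0.148). The Wfdc21 call was lost when any library other than the one labelled Hsp20 KO replicate 1 was left out. Without that one edgeR called 3 lower, and without each of the others 0 (3 or 4 lower and up to 1 higher by unadjusted p under 0.05). Among all tested genes, 730 were called lower without that library. Without each of the others between 53 and 329 were, against 547 with all libraries.

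Partner and upstream factors of these regulators mostly had no call. Of 43 tested, 1 rose, Flcn, and 1 fell, Ncor1, with a median log2 change of -0.04. The share higher, 2.33%, was below the 4.23% of all tested genes, and 3.42% of all tested genes were called lower. Few calls were thus no trait of this list. Flcn, which encodes folliculin, a factor known to restrain Ppargc1a in mouse fat, averaged 75.1 ± 3.86 CPM in Hsp20 KO and 60.4 ± 2.59 CPM in WT (SD, n = 3 each; edgeR adjusted p = 0.0462). Ncor1, a nuclear receptor corepressor that restrains PPARα and ERRα, averaged 250.1 ± 10.1 CPM in Hsp20 KO and 352 ± 41.1 CPM in WT (edgeR adjusted p = 0.0373). Sirt3, a mitochondrial deacetylase gene, Ctbp2, a corepressor, and Creb1, a cAMP-responsive factor, had log2 changes of 0.70, -0.29 and -0.23 (edgeR adjusted p = 0.0607, 0.0959 and 0.108). Flcn lost its call when any single library was left out (edgeR adjusted p from 0.0612 to 0.179), and Ncor1 was still called in 1 of the 6 such fits, the one without the library labelled Hsp20 KO replicate 1 (edgeR adjusted p = 0.0413). Pprc1, the third member of the PGC-1 family, picked after its values were seen, had 43.3, 39.7 and 36.4 CPM in Hsp20 KO and 44.02, 45.04 and 47.6 CPM in WT (log2 change -0.19, edgeR adjusted p = 0.206).

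Nuclear genes for the expression and upkeep of mitochondrial DNA, with which TFAM works, had 1 of 24 higher, Fastk, and 0 lower by edgeR, with a median log2 change of 0.13. The share higher, 4.17%, was close to the 4.23% of all tested genes. At an unadjusted p under 0.05 the counts were 8 higher and 1 lower, where 13.3% and 12.7% of all genes were. DESeq2 called 2 higher and 1 lower, close to its shares over all genes of 7.10% and 6.40%, and limma-voom 1 and 0. Fastk averaged 71.1 ± 5.62 CPM in Hsp20 KO and 52.2 ± 0.644 CPM in WT (SD, n = 3 each; edgeR adjusted p = 0.0226). Lonp1, a protease of the mitochondrial matrix, Tfb2m, the initiation factor that acts with TFAM, and Dguok, a deoxyguanosine kinase, had log2 changes of 0.36, 0.29 and 0.23 (edgeR adjusted p = 0.0642, 0.0892 and 0.114). Mgme1, a mitochondrial exonuclease, had -0.51 (0.095). Without the libraries labelled Hsp20 KO replicates 1 to 3 edgeR called 3, 0 and 1 higher, and 0 without each WT replicate in turn. In the fits with 0 calls, between 3 and 5 genes were higher at an unadjusted p under 0.05. Among all tested genes, edgeR called 941, 325 and 327 higher without the libraries labelled Hsp20 KO replicates 1 to 3. It called 325, 79 and 75 without WT replicates 1 to 3.

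**Figure D5:**
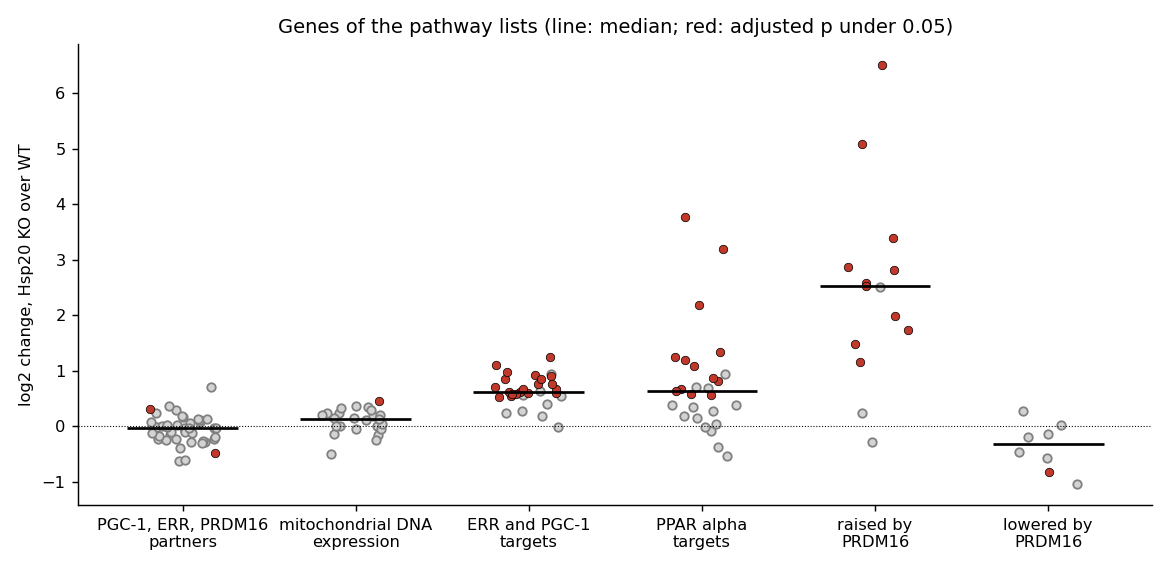
Log2 change, Hsp20 KO over WT (vertical axis), of the tested genes of 6 pathway lists (columns), with a line at each list's median and genes at an adjusted p under 0.05 in red. Medians are 0.62 for ERR and PGC-1 targets, 0.64 for PPARα targets and 2.52 for genes raised by PRDM16, against -0.04 for partner factors and 0.13 for mitochondrial DNA expression.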

How the data were processed

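RNA-seq of 6 libraries of inguinal fat was used. The deposited values are raw read counts per gene and library, as whole numbers with no normalization. The submitters' processing notes name TopHat, DESeq, bcl2fastq and CASAVA 1.8, with GRCm38 and mm10 as builds; the sources used here do not give the read counter, the annotation or whether strand was used. Columns were matched by sample names, and 24334 of 24415 gene IDs matched symbols of RefSeq GRCm38.p6.

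Counts were tested with edgeR 4.0.16 in R 4.3.3: filterByExpr (minimum count 10, minimum total 15), TMM scaling and quasi-likelihood F tests in a model of genotype alone. SEs follow from the F statistic. Alternatives used DESeq2 1.42.0, limma 3.58.1 (voom), other scalings and filters, a replicate block and left-out libraries. Exon lengths are unions over GENCODE M21 on GRCm38. Ratios used log2 of CPM plus 0.01. The fit was tested on simulated data.

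Named were all members, the 5 genes of smallest adjusted p per pathway list (mean of at least 1 CPM) and the 3 nearest profiles of each called member. One gene that this rule names is not reported here. Members and lists were chosen with earlier results of these data known. All replicate pairs differed by more than counting noise (lowest chi-square over its degrees of freedom 17.004). P-values of the fits set the difference between groups against the spread between these 3 mice per group, which is estimated with information shared across genes. Figures were drawn with matplotlib 3.10.9.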

Additional observations from a re-analysis of the deposited data

How the results depend on the processing

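Esrra kept its direction and its call under DESeq2 size factors, upper quartile scaling, both other filters, DESeq2, limma-voom and the replicate block. With single libraries left out, members called higher ran from 0 to 3, genes higher from 75 to 941 and genes lower from 53 to 730, and without WT replicates 2 or 3 no member was called (by unadjusted p under 0.05, 3 higher and 1 lower). Genes of the lists called higher ran from 0 to 25 for ERR and PGC-1 targets, 0 to 19 for PPARα targets, 4 to 12 for genes raised by PRDM16, 0 to 1 for partner factors and 0 to 3 for mitochondrial DNA expression, and genes called lower from 0 to 3 for genes lowered by PRDM16, 0 to 1 for partner factors and 0 to 1 for mitochondrial DNA expression. The log2 ratio differences ran from -1.48 to -0.90 for Esrra over Esrrg and from 0.45 to 0.72 for Ppargc1b over Ppargc1a, and with 0.5 added to the CPM they were -0.84 and 0.58.

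DESeq2 called 1135 genes higher and 1024 lower, against 676 and 547, with 2 partner factors and 2 genes of mitochondrial DNA expression higher and 1 lower, and 3 genes lowered by PRDM16 lower. Limma-voom called 1 member and 7 genes raised by PRDM16. Upper quartile scaling called 0 and the fit with no filter 2 genes lowered by PRDM16. Without both the library labelled Hsp20 KO replicate 1 and WT replicate 1, 4 members and 2 genes of mitochondrial DNA expression were higher, and 1 gene of mitochondrial DNA expression, 0 partner factors and 3 genes lowered by PRDM16 were lower. The cause of these shifts was not tested.

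Deviations from the group means had correlations of -0.042, 0.0994 and -0.113 between same-numbered libraries, and from -0.074 to 0.118 between the others. These values show no strong pairing by number. A weak pairing cannot be told from them with 3 mice per group. With the replicate block, genes called were 226 higher and 169 lower. The block fit called 2 members, 5 ERR and PGC-1 targets, 4 PPARα targets and 4 genes raised by PRDM16 higher, with 0 partner factors and 0 genes of mitochondrial DNA expression higher, and 0 partner factors and 0 genes lowered by PRDM16 lower. It called 0 of the 6 brown fat markers, against 2. Log2 changes that did not pass the test turned negative for Gabpa (-0.0015 with no filter, and between -0.033 and 0.029 with a library left out), Ppargc1a (between -0.20 and 0.46) and Prdm16 (between -5.74e-05 and 0.35). Without both replicate 1 libraries they were 0.038, 0.59 and 0.44.

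Depth limits Esrrb, at 5 to 12 counts a library, and the WT levels of Esrrg, at 31 to 41 counts, and of Elovl3, at 1 to 10 counts.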

Other observations

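EdgeR called no macrophage, lymphocyte, endothelial, epithelial or fat cell marker, while DESeq2 called 3 macrophage markers and 1 lymphocyte marker lower. With single libraries left out edgeR did make calls: 4 of 8 macrophage markers were lower without the library labelled Hsp20 KO replicate 1 (7 by unadjusted p) and 1 without replicate 2, and of 10 lymphocyte markers 4 were lower without replicate 2, 1 was higher without replicate 3 and 1 was lower without WT replicate 1. By unadjusted p under 0.05, 13.3% of all tested genes were higher and 12.7% lower. The sum of 8 macrophage markers was 1587, 1254 and 1228 CPM in the libraries labelled Hsp20 KO replicates 1 to 3, against 1481, 1612 and 1679 CPM in WT, with 4 of 8 lower at an unadjusted p under 0.05. B and T cell markers, 10 in all, summed to between 638 and 1132 CPM in Hsp20 KO and between 820.1 and 917 CPM in WT, and by unadjusted p under 0.05 had 1 higher and 1 lower. The 6 endothelial markers summed to between 698 and 794 CPM in Hsp20 KO and between 769 and 826 CPM in WT, with 1 higher and 1 lower by the same measure. The 6 epithelial markers summed to between 3.66 and 6.83 CPM in Hsp20 KO and between 5.55 and 6.11 CPM in WT, with 0 of 4 tested at an unadjusted p under 0.05. Of the 8 fat cell markers, 1 was higher by unadjusted p under 0.05. Of the 5 red cell transcripts, which include near-identical globin copies, edgeR called 4 lower. The part of these markers in the changes of the regulator genes was not tested.

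Nrip1, a corepressor of PGC-1 and ERR known as RIP140, was picked after its values were seen. It had 17.3, 17.4 and 18.9 CPM in the libraries labelled Hsp20 KO, against 44.7, 16.9 and 20.02 CPM in WT replicates 1 to 3, so WT replicate 1 stood apart in it as it did in muscle transcripts, Ppargc1a and Ppargc1b.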
